A study of Mus musculus with 9 samples.

Results

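Interferon-stimulated genes were followed in cells harvested from 3-day cultures of mouse bone marrow progenitors, as a group of 38 listed genes that leaves out the Schlafen, IRF and STAT genes. A gene was taken through the probe set that bore its symbol alone and had the highest mean over the 9 arrays. This gave 35 of the 38 genes, of 18193 genes measured in all, and Oas1g, Isg15 and Ifi44 were not analysed here. Progenitors were the LSK fraction (lineage-negative, Sca-1-positive, c-Kit-positive) of wild-type C57/Bl6 marrow, grown on OP9 (stromal cells of mouse marrow), and only cells that did not adhere were collected. Each of 3 culture conditions had 3 arrays: OP9-GFP, the control feeder; OP9-DL1, which displays Delta-like 1, a ligand of Notch; and OP9-DL1+CompoundE, the same feeder given Compound E at 1 µM. Compound E inhibits γ-secretase, the protease that releases the active part of a ligand-bound Notch receptor. The labels name no solvent control, and no culture of OP9-GFP with Compound E is analysed here. They also do not say whether replicates were separate cultures or animals, so the p-values rest on the spread among these arrays alone, and that spread may be technical.

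Interferons are secreted proteins that warn cells of infection. Type I interferons bind the receptor chains Ifnar1 and Ifnar2, and the kinases Jak1 and Tyk2 then activate Stat2, which acts with Irf9 on a promoter element called the interferon-stimulated response element (ISRE). Interferon γ acts through Ifngr1 and Ifngr2 and a promoter element called the γ-activated site (GAS). The genes switched on block viral entry, translation and replication, sense foreign nucleic acid, or present antigen, and many are also transcribed at a low tonic level in uninfected cells, macrophages among them.

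Promoters of some of the genes are printed first, because the ISRE is what many of the listed genes share apart from their names. RefSeq promoters (GRCm38.p6, 250 bases before to 50 after the annotated start) were matched for 29 of the 38 genes, 26 of them measured. Mx1, Mx2, Oas2, Zbp1, Dhx58, Rtp4, Parp9, Parp14 and Usp18 had no entry. The ISRE core was searched as GAAANNGAAA on both strands and the GAS as TTCNNNGAA, which reads the same on both strands. The 160 bases before the start are given 5′ to 3′ in the direction of transcription, with ISRE core matches in capitals. The first 5 genes were lower on OP9-DL1, and the last 2, Igtp and Ifi47, were higher. The printed genes do not stand for all: the first 5 each hold an ISRE core match. Oasl2, Oasl1, Xaf1, Sp100, Adar and Tap1 were also lower, and their promoters hold none. Isg20 was higher and holds none. Positions are chr19:34640729-34640888 (+) for Ifit1, chr19:34583369-34583528 (+) for Ifit3, chr5:120907526-120907685 (-) for Oas1a, chr5:120777660-120777819 (-) for Oas3, chr12:26456453-26456612 (-) for Rsad2, chr11:58199396-58199555 (+) for Igtp and chr11:49076427-49076586 (+) for Ifi47.
Ifit1: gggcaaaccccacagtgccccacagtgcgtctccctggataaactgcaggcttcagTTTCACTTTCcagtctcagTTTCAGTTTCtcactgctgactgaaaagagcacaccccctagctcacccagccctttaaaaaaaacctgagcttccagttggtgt
Ifit3: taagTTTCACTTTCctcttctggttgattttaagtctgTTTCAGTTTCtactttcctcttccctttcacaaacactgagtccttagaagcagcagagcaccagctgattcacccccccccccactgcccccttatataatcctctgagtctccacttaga
Oas1a: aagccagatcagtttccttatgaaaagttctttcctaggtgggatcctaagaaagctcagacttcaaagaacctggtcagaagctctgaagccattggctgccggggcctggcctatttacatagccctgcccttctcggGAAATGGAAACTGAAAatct
Oas3: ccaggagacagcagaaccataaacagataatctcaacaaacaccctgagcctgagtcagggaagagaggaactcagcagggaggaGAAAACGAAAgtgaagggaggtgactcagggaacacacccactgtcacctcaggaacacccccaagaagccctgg
Rsad2: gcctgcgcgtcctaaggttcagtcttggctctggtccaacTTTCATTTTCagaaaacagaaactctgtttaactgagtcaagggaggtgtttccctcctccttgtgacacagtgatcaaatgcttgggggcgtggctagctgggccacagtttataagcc
Igtp: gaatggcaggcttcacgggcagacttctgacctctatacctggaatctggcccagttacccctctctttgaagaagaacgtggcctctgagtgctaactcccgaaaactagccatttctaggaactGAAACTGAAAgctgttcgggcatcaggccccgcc
Ifi47: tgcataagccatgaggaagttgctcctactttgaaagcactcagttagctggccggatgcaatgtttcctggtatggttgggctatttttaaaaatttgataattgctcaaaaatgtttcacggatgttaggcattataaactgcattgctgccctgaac
Both Ifit1 matches, which begin 104 and 85 bases before the start, and both Ifit3 matches, at 156 and 122 bases, read TTTC first, as does the match in Rsad2. In Oas1a 2 overlapping matches begin 20 and 14 bases before the start. The single matches begin 75 bases before it in Oas3, 120 in Rsad2 and 34 in Igtp. In Ifi47 these letters are not in the window.

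Of the 29 matched genes 15 (51.7%) had an ISRE core match in at least 1 promoter, against 3.99% of the 27025 genes with a promoter of this length, and 8 (27.6%) had a GAS match, against 9.55%. A GAS match overlapped an ISRE core match in 1 gene, Bst2. Among the 26 measured genes with a promoter, the 13 with an ISRE core match had a median log2 difference of -0.56 between OP9-DL1 and OP9-GFP, with 9 lower and 1 higher. The other 13 had a median of -0.32, with 6 lower and 2 higher. Genes without a promoter entry are in neither set, Mx1 (-3.18), Zbp1 (-2.55) and Oas2 (-1.78) among them. The difference between the sets was not tested. A match describes the letters and shows no binding.

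Array medians ran from 4.78 to 4.94 (log2), and the brightest of 27 bacterial control probe sets reached 3.64, a value taken here as background. Nrarp, a direct Notch target, checked the labels: its level averaged 6.61 ± 0.02 in the OP9-GFP cultures, 9.30 ± 0.12 in the OP9-DL1 cultures and 5.02 ± 0.23 once Compound E was added (SD over n = 3 arrays). The pan-leukocyte gene Ptprc was bright in all groups (means 11.53, 11.38 and 11.59), and so was the stromal chemokine gene Cxcl12 (12.21, 12.56 and 12.08); the share of feeder RNA was not tested. All levels below are log2 values, and none was compared between genes. A difference is written as rising or falling only where limma gave an adjusted p under 0.05, with Benjamini-Hochberg adjustment over all genes. Ptprc is from a list of LSK-derived blood cell genes, 7 of them measured. Of these, 3 rose and 3 fell on OP9-DL1, where 15.9% of all genes rose and 16.7% fell. With Compound E on that feeder 3 rose and 3 fell, where 25.1% of all genes rose and 21.6% fell. Kit had means of 8.94, 10.22 and 8.14 in the order of the groups above, and Spi1 9.73, 8.81 and 10.19. The number of arrays limits the precision.

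On OP9-DL1 most of the interferon-stimulated genes were lower than on OP9-GFP: 22 of 35 fell, 3 rose and 10 did not pass the test. Over all 18193 genes tested 16.7% fell and 15.9% rose, 32.6% together. The members' median difference was -0.56, beside -0.02 over all genes, and 12 fell and 0 rose at least 2-fold, as 2.76% and 4.11% of all genes did. Mx1 fell 9.08-fold, Oas3 5.99-fold and Zbp1 5.88-fold. For 24 members all 3 OP9-DL1 arrays lay below all 3 OP9-GFP arrays, and for 3 above, where 23.0% and 20.8% of all genes did so. With Compound E on the same feeder the order turned: 29 members were higher than on OP9-DL1 alone, 2 were lower and 4 did not pass, where 25.1% of all genes rose and 21.6% fell, 46.7% together. That median was 0.72, beside 0.08 over all genes, and 14 members rose and 0 fell at least 2-fold (4.47% and 4.95% of all genes). All 3 arrays with Compound E lay above all 3 OP9-DL1 arrays for 30 members and below for 2 (29.3% and 23.2% of all genes). These comparisons share the OP9-DL1 arrays, so they are not independent of each other, and their values are set side by side below. In order of group means, whether called or not, 27 members read OP9-DL1 lowest, then OP9-GFP, then Compound E. The share of all genes with this order was not counted. Of the 35 members 18 were called higher with Compound E than on OP9-GFP.

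**Figure D1:**
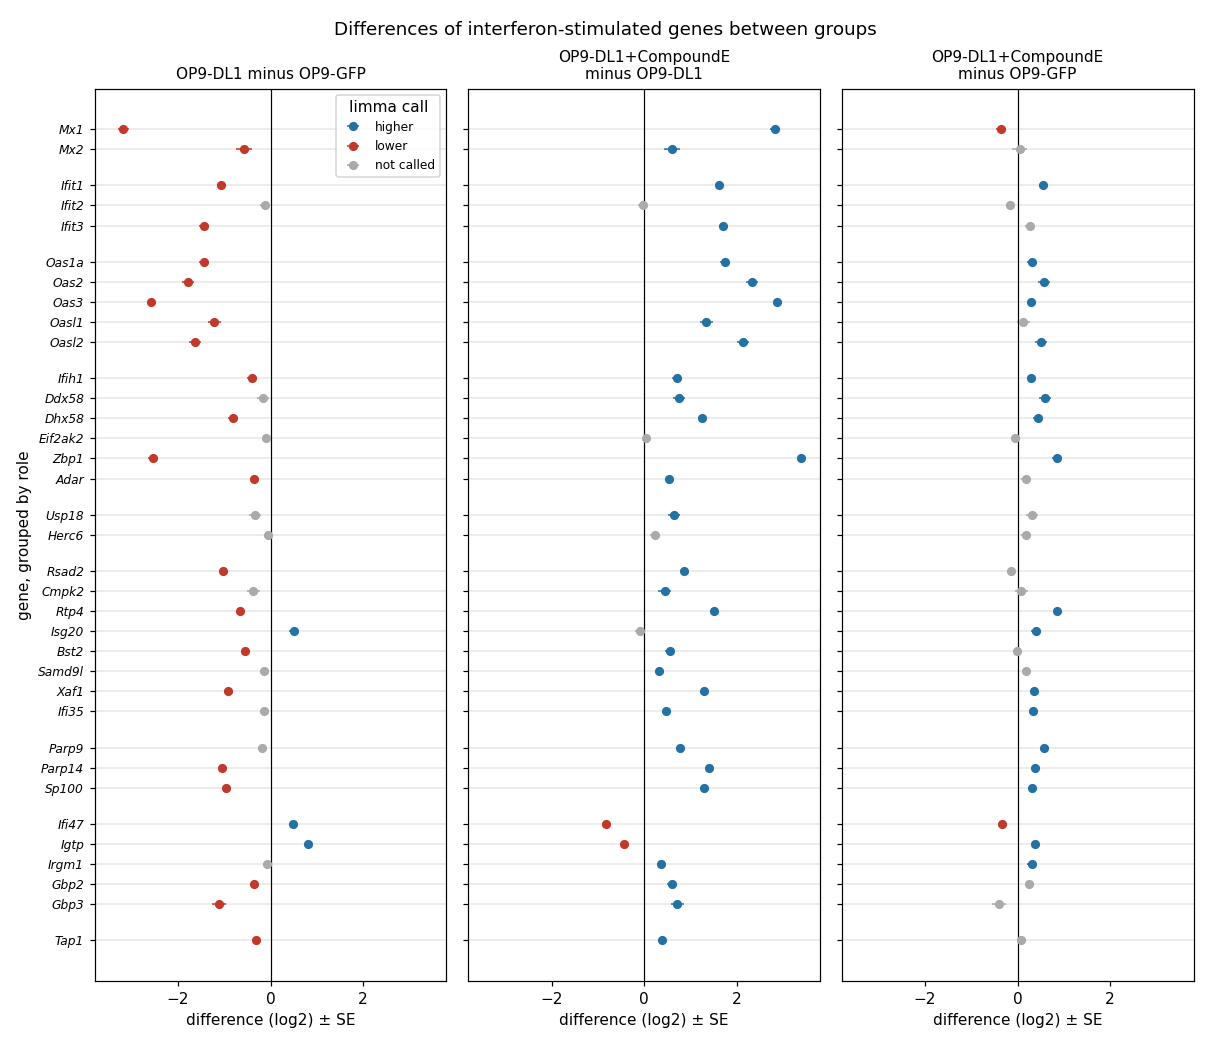
Differences between group means (x axes, log2, with the model's SE as bars) of the 35 interferon-stimulated genes (y axis, grouped by role) in the 3 comparisons. Blue points were higher, red points lower and grey points not called by limma. On OP9-DL1 against OP9-GFP 22 genes lie to the left as called falls, and with Compound E against OP9-DL1 29 lie to the right as called rises.

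Macrophage markers moved in the same direction. Of 18 genes listed for monocytes, macrophages and dendritic cells 16 fell on OP9-DL1 and 1, Itgax, rose (by 4.03), with a median difference of -1.64, and 14 rose and 1 fell with Compound E on that feeder (median 1.69). Their summed log2 level was 164.2 to 165.0 on the OP9-GFP arrays, 134.7 to 136.2 on OP9-DL1 and 160.7 to 161.8 with Compound E. The Fc receptor gene Fcgr1 had means of 9.74, 6.36 and 10.30 in that order, and the macrophage marker Adgre1 9.92, 7.70 and 10.56. C1qb (9.36, 7.01 and 6.79) and C1qc (6.81, 4.55 and 4.18) fell on OP9-DL1 and did not rise with Compound E. C1qa was at background in every group. Stromal markers moved the other way, 11 of 12 rising on OP9-DL1 and all 12 falling with Compound E (sums 108.7 to 109.1, 120.7 to 121.4 and 108.8 to 110.3, with at most 1 gene at background on any array). The 8 megakaryocyte and platelet genes all rose and then all fell (sums 72.02 to 72.07, 84.69 to 85.06 and 69.54 to 69.99, none at background). Of 8 markers of plasmacytoid dendritic cells, a potent source of type I interferon, 1 fell on OP9-DL1: Siglech went from 4.80 to 3.77 and rose to 4.28 with Compound E. Spib stood at 0.48 on OP9-DL1, not called, and fell by 0.90 with Compound E, while Ccr9 (3.67, 3.55 and 3.59) and Pacsin1 (3.25, 3.04 and 3.14) were at or near background. The sums of this list were 44.37 to 44.54 on OP9-GFP, 42.96 to 44.54 on OP9-DL1 and 42.58 to 44.12 with Compound E. The part of these cell types in the results on interferon-stimulated genes was not tested, and in bulk RNA fewer cells of a type and less RNA per cell cannot be told apart.

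**Figure D2:**
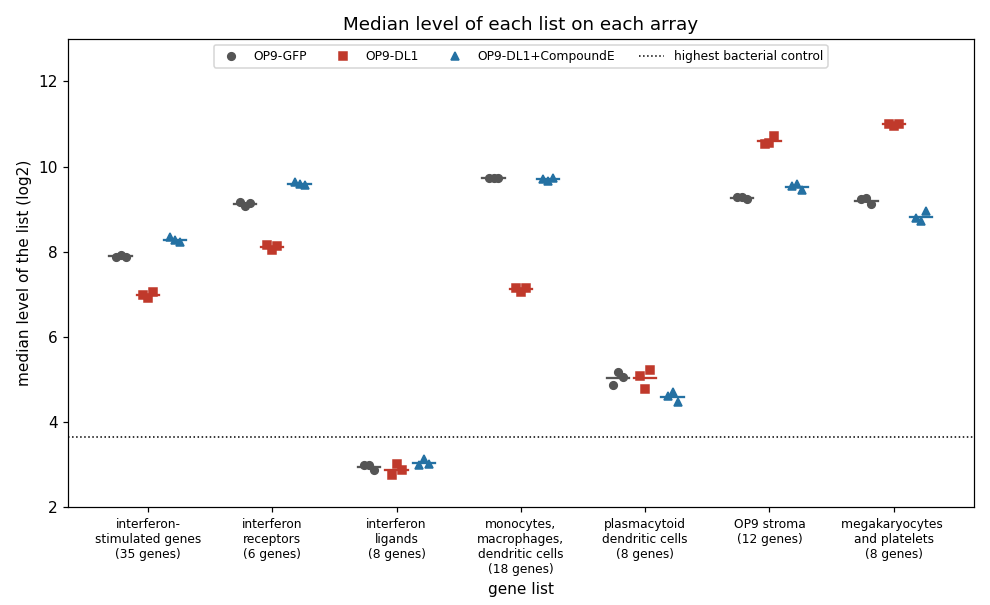
Median level (y axis, log2) of each gene list (x axis) on each array, with 1 point per array and a line at each group's mean; the dotted line marks the highest bacterial control, 3.64. The 3 OP9-DL1 arrays lie lowest for the interferon-stimulated genes (6.91 to 7.06, against 7.87 to 7.92 on OP9-GFP and 8.23 to 8.34 with Compound E) and for the macrophage list, and highest for the stromal and megakaryocyte lists.

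Mx1, a GTPase that blocks influenza virus in the nucleus and that in most inbred strains, C57BL/6 included, carries a deletion that leaves no active protein, moved furthest on OP9-DL1. Its level was 9.0, 8.90 and 8.91 on the OP9-GFP arrays, 6.04, 5.55 and 5.68 on OP9-DL1, and 8.52, 8.57 and 8.64 with Compound E. The groups did not overlap, and the OP9-DL1 arrays lay far below both others. Mx1 fell by 3.18 ± 0.11 (SE) on OP9-DL1 (limma adjusted p = 1.4e-12) and rose by 2.82 ± 0.11 with Compound E (adjusted p = 2.52e-12), 7.07-fold. Its relative Mx2 was dim, with means of 3.91 ± 0.33, 3.34 ± 0.27 and 3.95 ± 0.16 (SD, n = 3), the OP9-DL1 mean at background. The Mx2 differences were -0.57 and 0.61, both called, or -0.16 and 0.17 on the scale of log2(linear value + 32), which shrinks changes of dim genes. The first call ended without OP9-GFP replicate 1 or 2 or OP9-DL1 replicate 1 or 3, at differences between -0.56 and -0.41, and the second without OP9-DL1 replicate 1, at 0.50.

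The OAS enzymes make oligoadenylates that switch on RNase L, which degrades RNA. All 5 measured members of the family fell on OP9-DL1 by more than 2-fold and rose with Compound E by more than 2-fold. Oas3 read 8.90, 9.04 and 9.18 on OP9-GFP, 6.50, 6.52 and 6.36 on OP9-DL1, and 9.21, 9.31 and 9.49 with Compound E. It fell by 2.58 ± 0.09 (limma adjusted p = 2.37e-12) and rose by 2.88 ± 0.09 (adjusted p = 3.04e-13). The 3 OP9-DL1 arrays lay in a narrow range well below the other 6. Oas2 read 7.0, 7.18 and 7.06, then 5.25, 5.34 and 5.31, then 7.78, 7.83 and 7.31. It fell by 1.78 ± 0.13 and rose by 2.34 ± 0.13, and 1 Compound E array, replicate 3, stood below its other two. The values of Oas1a, a catalytically active short form, were 8.74, 8.87 and 8.57, then 7.39, 7.14 and 7.31, then 8.91, 9.10 and 9.05. Oas1a fell by 1.45 ± 0.09 and rose by 1.74 ± 0.09. Again the OP9-DL1 arrays stood below the other 6. Oasl2, a family member with ubiquitin-like repeats, had 6.32, 6.17 and 6.20, then 4.48, 4.48 and 4.85, then 6.78, 6.72 and 6.70. Its differences were -1.63 ± 0.13 and 2.13 ± 0.13, or -0.93 and 1.29 on the scale of log2(linear value + 32). For Oasl1, which restrains the translation of Irf7, the arrays read 4.71, 4.95 and 4.66, then 3.72, 3.37 and 3.57, then 4.87, 5.06 and 4.76. The OP9-DL1 mean of Oasl1 was at background, so its differences of -1.22 ± 0.14 and 1.34 ± 0.14 are measured against background. On the scale of log2(linear value + 32) they were -0.44 and 0.50. Whether the Oas1a probe set also reads other, near-identical Oas1 genes was not tested.

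IFIT proteins bind viral RNA and stop its translation, and they split within the family. Ifit1 read 7.76, 7.76 and 7.77 on OP9-GFP, 6.82, 6.59 and 6.67 on OP9-DL1, and 8.34, 8.25 and 8.33 with Compound E. Its 3 groups stood apart, with OP9-DL1 lowest and Compound E highest, and Ifit1 fell by 1.07 ± 0.09 (adjusted p = 3.65e-08) and rose by 1.62 ± 0.09 (adjusted p = 1.48e-10). Ifit3 read 7.81, 7.76 and 7.85, then 6.32, 6.31 and 6.44, then 7.92, 8.22 and 8.06. It fell by 1.45 ± 0.10 and rose by 1.71 ± 0.10, and its OP9-DL1 arrays lay below the other 6. Ifit2 did not pass in any comparison: its means were 7.73 ± 0.17, 7.60 ± 0.08 and 7.57 ± 0.09 (SD, n = 3), and its arrays overlapped between all groups.

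Sensors of foreign nucleic acid and the RNA editor Adar fell in 4 of 6 cases on OP9-DL1 and rose in 5 with Compound E. Zbp1, which senses Z-form nucleic acid and can start necroptosis, read 7.87, 8.08 and 7.80 on OP9-GFP, 5.45, 5.27 and 5.38 on OP9-DL1, and 8.61, 8.85 and 8.83 with Compound E. The 3 groups did not overlap. Zbp1 fell by 2.55 ± 0.10 (adjusted p = 9.91e-12) and rose by 3.40 ± 0.10 (10.5-fold, adjusted p = 1.85e-13), the largest rise among the 35 genes. Dhx58, the RIG-I-like regulator LGP2, went from 7.28 to 6.46 to 7.71, differences of -0.82 and 1.25, or -0.44 and 0.78 with its 3 probe sets averaged. Ifih1, the RNA sensor MDA5, fell by 0.41 ± 0.09 and rose by 0.70 ± 0.09, and Adar fell by 0.36 ± 0.09 and rose by 0.54 ± 0.09. Another Adar probe set fell on OP9-DL1 (-0.37) but did not rise with Compound E (-0.02), where it was lower than on OP9-GFP (-0.39). The remaining Adar probe set differed by -0.79 and 0.93, both called. Ddx58, the sensor RIG-I, had means of 6.29 ± 0.11, 6.13 ± 0.18 and 6.88 ± 0.18 (SD, n = 3): the step to OP9-DL1 did not pass (-0.16, adjusted p = 0.419), and the rise with Compound E was 0.75. Eif2ak2, the RNA-activated kinase PKR, passed in no comparison with its brightest probe set (means 9.09, 9.0 and 9.04). Its other 2 probe sets fell on OP9-DL1, by 0.27 and 0.50, and with all 3 averaged the difference was -0.29 and was called.

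Of the ISG15 system, in which a ubiquitin-like protein is joined to new proteins, Usp18 and Herc6 were measured. Usp18, which removes ISG15 and dampens the type I receptor, read 6.99 ± 0.17, 6.66 ± 0.18 and 7.30 ± 0.22 (SD, n = 3). The -0.33 on OP9-DL1 did not pass (adjusted p = 0.0701), though it passed without OP9-GFP replicate 3 or OP9-DL1 replicate 3 (-0.43 each) and without OP9-DL1+CompoundE replicate 3 (-0.33). Usp18 rose by 0.64 ± 0.13 with Compound E. Herc6, a ligase for ISG15, had differences of -0.05 and 0.23, neither called, and without OP9-DL1 replicate 3 the second was 0.30 and passed.

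Among 8 other antiviral and induced genes 4 fell on OP9-DL1 and 1 rose, and 7 rose with Compound E. Rsad2 encodes viperin, which makes a chain-terminating nucleotide. It read 9.68, 9.63 and 9.69 on OP9-GFP, 8.64, 8.72 and 8.59 on OP9-DL1, and 9.49, 9.47 and 9.58 with Compound E. Rsad2 fell by 1.02 ± 0.06 and rose by 0.87 ± 0.06. Every OP9-DL1 array lay below the other 6. Xaf1 fell by 0.93 and rose by 1.30, Rtp4 fell by 0.67 and rose by 1.52, and Bst2, the tetherin that holds budding virus to the cell, fell by 0.56 and rose by 0.55. Cmpk2, the nucleotide kinase gene next to Rsad2, had means of 6.08, 5.71 and 6.16. Its -0.37 on OP9-DL1 missed the threshold (adjusted p = 0.0541) and passed without OP9-DL1 replicate 2 (-0.49) or OP9-DL1+CompoundE replicate 1 or 3 (-0.37 each). Its rise of 0.45 was lost without OP9-DL1 replicate 1 (0.37) or 3 (0.39), without OP9-DL1+CompoundE replicate 3 (0.35), and with both probe sets averaged (0.29), and was also 0.29 on the scale of log2(linear value + 32). Ifi35 and Samd9l did not pass on OP9-DL1 (-0.14 each) and rose by 0.47 and 0.32 with Compound E; Ifi35 passed there without OP9-DL1 replicate 3 (-0.21) and with probe sets averaged (-0.24).

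Isg20, an exonuclease that degrades RNA, was an exception. It read 6.96, 6.91 and 7.02 on OP9-GFP, 7.41, 7.38 and 7.59 on OP9-DL1, and 7.43, 7.21 and 7.43 with Compound E. Arrays of both OP9-DL1 conditions lay above all OP9-GFP arrays and overlapped each other. Isg20 rose by 0.50 ± 0.10 on OP9-DL1 (adjusted p = 0.000772), and the step to Compound E of -0.10 ± 0.10 did not pass (adjusted p = 0.407).

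Parp14, which attaches ADP-ribose to proteins, its relative Parp9 and the PML nuclear body component Sp100 were all higher with Compound E than on OP9-DL1. Parp14 read 9.68, 9.61 and 9.58 on OP9-GFP, 8.56, 8.54 and 8.63 on OP9-DL1, and 9.94, 10.05 and 9.97 with Compound E. Its groups stood apart without overlap, by -1.05 ± 0.06 (adjusted p = 4.84e-10) and 1.41 ± 0.06 (adjusted p = 7.39e-12). Sp100 fell by 0.97 and rose by 1.29. Parp9 had -0.19 on OP9-DL1, not called (adjusted p = 0.108), and rose by 0.77.

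GTPases that act on vacuoles holding microbes, a class known for its strong response to interferon γ, did not move together. Igtp rose on OP9-DL1 from 7.99, 7.96 and 8.02 to 8.87, 8.70 and 8.79, and its arrays with Compound E lay between, at 8.34, 8.44 and 8.30. It rose by 0.80 ± 0.07 (adjusted p = 1.93e-07) and with Compound E fell by 0.43 ± 0.07 (adjusted p = 0.000124). Ifi47 rose from 9.52, 9.55 and 9.66 to 10.14, 9.95 and 10.10 and was lowest with Compound E, at 9.28, 9.23 and 9.18. No array of one group reached another group's range for either gene. Ifi47 rose by 0.49 ± 0.06 and fell by 0.83 ± 0.06. Irgm1, of the same family, had 6.85, 6.79 and 7.16, with no call on OP9-DL1 (-0.07) and a rise of 0.37 ± 0.10. The guanylate-binding genes Gbp2 and Gbp3 went with the majority. Other genes of these families, from the wider list, were named after their values were seen. Gbp6 stood at -0.07 on OP9-DL1, not called, and fell by 0.99 with Compound E. Gbp7 stood at 0.05 and -0.26 and Iigp1 at -0.05 and 0.14, none of them called. Irgm2 went with the majority, with a fall of 0.63 and a rise of 1.12. Gbp3 read 7.99, 7.92 and 7.88, then 6.80, 6.79 and 6.85, then 7.64, 7.08 and 7.87. It fell by 1.12 ± 0.15 and rose by 0.72 ± 0.15. Its Compound E arrays spread over a wider range than those of either other group, with replicate 2 lowest. Gbp2 fell by 0.35, a call lost without OP9-GFP replicate 2 (-0.28) or OP9-DL1 replicate 1 (-0.27), and rose by 0.60. Tap1, the peptide transporter of antigen presentation, fell by 0.32 and rose by 0.39; with its 4 probe sets averaged, some of them at background, it stood at -0.09 and 0.17 and neither was called.

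**Figure D3:**
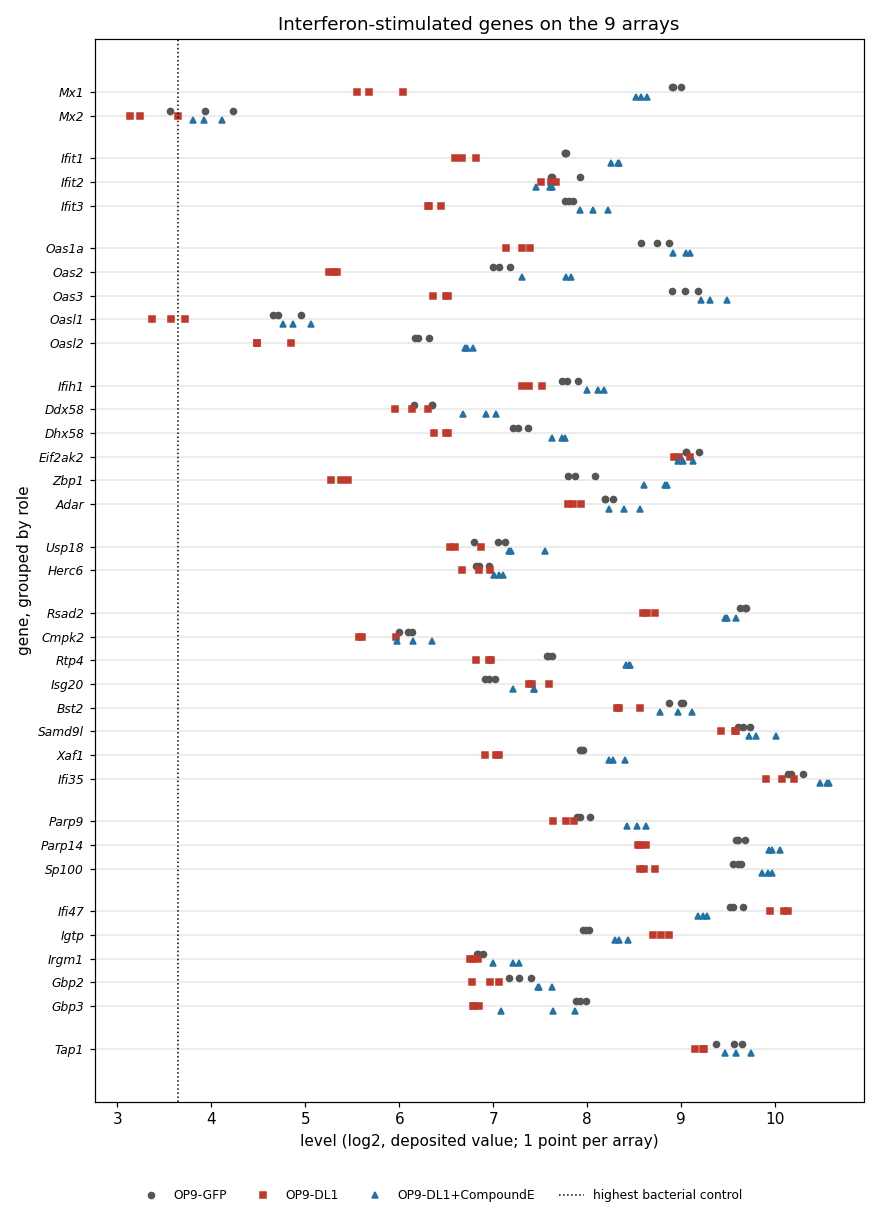
Level of each of the 35 genes (y axis, grouped by role) on each of the 9 arrays (x axis, log2, 1 point per array, coloured by group), with the highest bacterial control as a dotted line. Red OP9-DL1 points lie left of the other 6 for most genes, as for Mx1 (5.55 to 6.04) and Zbp1 (5.27 to 5.45), and right of the grey points for Isg20, Ifi47 and Igtp.

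Cultures with the inhibitor were then compared with the control feeder, which asks whether the genes returned to the level of OP9-GFP; this comparison shares arrays with both others. Of the 35 genes 18 were higher with Compound E than on OP9-GFP, 2 were lower and 15 did not pass, where 12.1% of all genes were higher and 10.6% lower, 22.7% together. Of the 35 genes 0 differed by 2-fold in either direction (0.605% and 0.753% of all genes), the median difference was 0.29 (0.05 over all genes), and the arrays stood apart upward for 22 genes and downward for 4 (19.8% and 15.0% of all genes). Zbp1 (0.84 ± 0.10, adjusted p = 2.41e-05) and Rtp4 (0.84 ± 0.08, adjusted p = 2.1e-06) were furthest above. Ddx58 (0.59), Parp9 (0.58), Oas2 (0.56), Ifit1 (0.55) and Oasl2 (0.50) followed. The 2 lower genes were Mx1 (-0.36) and Ifi47 (-0.34). Several of these calls lay near the threshold and ended when any of several arrays was left out. Mx1 was not called without any one of the 3 OP9-GFP arrays or of OP9-DL1+CompoundE replicates 1 and 2 (-0.38 to -0.33). Oas1a (0.30) lost its call without OP9-GFP replicate 1 or 3 or OP9-DL1+CompoundE replicate 2 or 3 (0.22 to 0.30), and Oas3 (0.29) without OP9-GFP replicate 1 or 2 or OP9-DL1+CompoundE replicate 2 or 3 (0.22 to 0.31). Ifih1 (0.29) lost it without OP9-GFP replicate 1 or 3 or OP9-DL1+CompoundE replicate 1 or 3 (0.25 to 0.28), and Irgm1 (0.31) without any OP9-GFP array, OP9-DL1 replicate 1 or OP9-DL1+CompoundE replicate 1 or 2 (0.25 to 0.33). Without OP9-DL1+CompoundE replicate 3 Gbp3 (-0.57), Rsad2 (-0.19) and Adar (0.25) passed, and without replicate 1 of that group Ifit3 (0.33) and Samd9l (0.24) did. With probe sets averaged Parp14 (0.24) and Xaf1 (0.27) did not pass. Ifit2, Eif2ak2 and Herc6 passed in none of the 3 comparisons. The macrophage list had 9 of 18 genes higher and 4 lower in this comparison, with a median of 0.23, and its part was not tested. The 4 lower genes were C1qc (-2.63), C1qb (-2.56), Mrc1 (-1.21) and Mertk (-1.02).

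Signalling genes upstream of these targets were read from lists of their own. For their counts, 16.7% of all genes fell and 15.9% rose on OP9-DL1. With Compound E on that feeder 25.1% of all genes rose and 21.6% fell. Of 8 interferon genes measured 7 had means at background in every group, and Ifna1 had means of 3.52, 3.65 and 3.82. Limma called 0 of the 8 on OP9-DL1 against OP9-GFP, with 0 at an unadjusted p under 0.05. With Compound E against OP9-DL1 it called Ifnb1 (0.30) and Ifna5 (0.33), both with means at background in every group. On 1 array, OP9-DL1+CompoundE replicate 2, Ifna5 read 3.70, just above background. The means of Ifnb1 were 3.04, 2.90 and 3.20, those of Ifna2 2.58, 2.54 and 2.77, of Ifna4 2.90, 2.81 and 2.87, of Ifna5 3.30, 3.24 and 3.57, of Ifna9 3.01, 3.04 and 3.18, of Ifna11 2.66, 2.57 and 2.64, and of Ifng 2.85, 2.85 and 2.88. No interferon gene measured here was above background in all 3 groups.

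Receptor genes, in contrast, were above background, Ifnlr1 aside, and moved in the direction of most targets. Ifnar1 and Ifnar2, the type I receptor chains, fell by 1.19 ± 0.06 and 1.05 ± 0.07 on OP9-DL1 and rose by 1.33 ± 0.06 and 1.17 ± 0.07 with Compound E. Ifngr2 fell by 1.39 and rose by 1.78, Ifngr1 fell by 0.65 and rose by 1.20, and Il10rb, a chain shared with the interferon λ receptor, fell by 1.22 and rose by 1.64. Ifnlr1 was at background (3.47, 3.51 and 3.52). So 5 of 6 receptor genes fell and then 5 rose. With Compound E against OP9-GFP 3 of the 6 were higher, namely Ifngr1 (0.55), Il10rb (0.42) and Ifngr2 (0.39).

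Of 5 measured kinases and STATs 2 fell on OP9-DL1 and 3 rose with Compound E. Stat2 fell by 0.89 and rose by 1.36, and Tyk2 fell by 0.54 and rose by 0.93, and Stat3 rose by 0.28 with Compound E. Jak1 (0.16 and 0.03) and Jak2 (0.05 and 0.06) passed in neither; Stat3, Jak1 and Jak2 were named after their values were seen. Interferon regulatory factors fell in 4 of 8 cases and rose in 1, and 5 rose with Compound E. Irf7 and Irf9, which are part of the type I response, fell by 0.82 and 0.80 and rose by 1.52 and 1.39. Irf4 and Irf8, factors of the myeloid and lymphoid lineages, fell by 3.53 and 1.52 and rose by 2.74 and 1.24. The factor that rose on OP9-DL1 was Irf1 (0.29), a target of the interferon γ signal, named after its value was seen. Genes that lead to interferon production fell in 8 of 12 cases and rose in 1 on OP9-DL1, and 10 rose with Compound E. The RNA receptor gene Tlr7 fell by 1.68 and rose by 2.28, Tlr3 fell by 1.05 and rose by 1.48, the kinase gene Ikbke fell by 0.79 and rose by 0.89, and Tmem173, which encodes STING, fell by 0.57 and rose by 1.17. Myd88, named after its value was seen, was the rise (0.19). Inhibitors of the signal showed 3 rises and 1 fall among 8 on OP9-DL1: Socs3 (0.55), Ptpn11 (0.28) and Ptpn2 (0.20) rose and Ptpn6 fell by 0.45.

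A wider set of 53 measured interferon-induced genes, not in the list of 38, fell in 24 cases and rose in 4 on OP9-DL1. Of all genes 16.7% fell and 15.9% rose. The set's median was -0.17, beside -0.02 over all genes. With Compound E 33 rose and 8 fell, where 25.1% and 21.6% of all genes did so. That median was 0.26, beside 0.08 over all genes. Ifi27l2a fell by 3.27 and rose by 3.70, Ifi204, a DNA sensor of the Aim2-like family, fell by 2.34 and rose by 2.61, and the chemokine gene Cxcl10 fell by 1.27 and rose by 1.24. Tnfsf10, the death ligand TRAIL, went the other way, with a rise of 1.54 and a fall of 1.75. The other 3 rises, named after their values were seen, were Lgals9 (1.01), Uba7 (0.41), which activates ISG15, and Lgals3bp (0.36).

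For 15 of the 35 genes the array held more than 1 probe set, 25 besides those used. With all probe sets in the fit, 13 of these 25 fell on OP9-DL1 and 0 rose, and with Compound E 15 rose and 0 fell. Of all 34945 probe sets in that fit 5111 fell and 4766 rose on OP9-DL1, and 7695 rose and 7109 fell with Compound E. Of the 25, those above background in at least 1 group numbered 20, of which 12 fell and then 13 rose. The other probe set of Zbp1 differed by -1.82 and 2.96, another of Rsad2 by -1.47 and 1.22 and the other of Sp100 by -0.49 and 1.20, all called. In Herc6, whose brightest probe set was not called, another of the 4 fell by 0.38 and rose by 0.61. Another probe set of Ddx58 stood at 0.28 on OP9-DL1, not called, and rose by 0.84 with Compound E. For 20 genes, Mx1 and the OAS and IFIT genes among them, a single probe set carries the value.

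**Figure D4:**
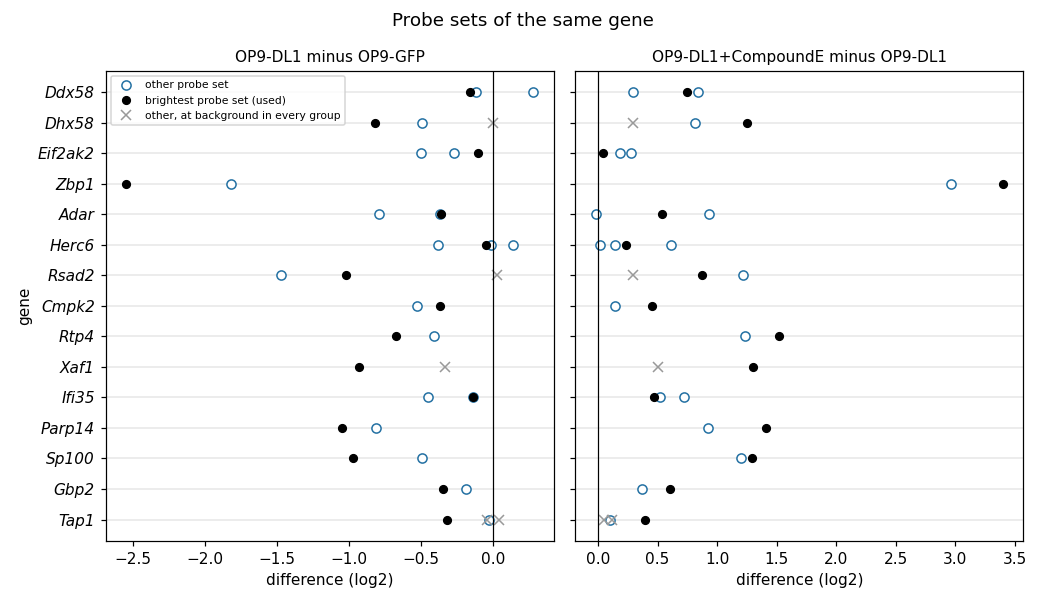
Difference (x axes, log2) of every probe set of the 15 genes (y axis) measured by more than 1, on OP9-DL1 against OP9-GFP and with Compound E against OP9-DL1. Filled points are the brightest probe set, used in the text, open points the others, and crosses those at background in every group. The open points mostly lie on the same side of 0 as the filled ones, as for Zbp1 (-2.55 and -1.82).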

How the data were processed

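Expression was measured on 9 single-colour oligonucleotide arrays, 3 per group, with groups and replicate numbers from the sample titles. For each condition 25 ng of RNA went into amplification and biotin labelling, per the labels' protocols. The deposited table holds the authors' processed log2 values, and the submitters' processing notes name MAS5 and GCRMA 2.4.1 with no role or order, so which of them made the values is not stated. If it was GCRMA, dim values are shrunk towards a floor and folds against them are understated. No detection calls are in the table, so 27 bacterial probe sets served as background.

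Symbols came from the platform annotation, updated through Entrez IDs. All 18193 genes were fitted with limma 3.58.1 (R 4.3.3; eBayes with an intensity trend) on all 9 arrays, with no covariate, further normalization or filter, and Benjamini-Hochberg adjustment over the whole set at a threshold of 0.05. A trial of the fit used simulated data with independent noise and far fewer changed genes than were called here. It therefore does not vouch for the calls. Errors are SD between the 3 arrays of a group or SE of the model. Exactly equal values within a group occurred for 4 of the 35 genes (21.9% of all genes), and lower their spread. Members and lists were chosen with earlier results of these data known. Values on all arrays are given for the 12 called genes with the largest difference between OP9-DL1 and OP9-GFP and for genes called against the majority. From each pathway list up to 4 called genes are named, and every interferon and receptor gene. Alternatives were log2(value + 32), quantile normalization, centring, averaged probe sets, all probe sets, no trend, 6 arrays, a replicate block, 3 gene filters, a 2-fold threshold and each array left out.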

Additional observations from a re-analysis of the deposited data

How the results depend on the processing

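No called difference of an interferon-stimulated gene changed sign with log2(value + 32), quantile normalization, centring, averaged probe sets or an array left out. The other alternatives leave a gene's difference as it is, so they could not change its sign. Across the alternatives other than the 2-fold threshold, 27 of 35 genes kept their side of the threshold in OP9-DL1 against OP9-GFP, 30 in Compound E against OP9-DL1 and 23 in Compound E against OP9-GFP. With the 2-fold threshold 0 genes were higher and 12 lower on OP9-DL1, 14 higher and 0 lower with Compound E against OP9-DL1, and 0 higher and 0 lower against OP9-GFP. The median difference on OP9-DL1 was -0.35 with log2(value + 32) and -0.41 among genes brighter than the median gene, and the median with Compound E against OP9-DL1 was 0.55 with log2(value + 32). Without an intensity trend 1 gene was lower with Compound E against OP9-GFP. Leaving out 1 array at a time gave 20 to 24 lower genes and a median of -0.60 to -0.41 on OP9-DL1, 27 to 29 higher genes with Compound E against OP9-DL1, and 14 to 18 higher and 1 to 4 lower against OP9-GFP. On OP9-DL1, centring each array on its median also called Usp18 (-0.37), Parp9 (-0.23), Ifi35 (-0.19) and Cmpk2 (-0.41). Against OP9-GFP, Oas1a and Oas3 were not called with quantile normalization (0.25 and 0.27) or without a trend. The causes were not tested.

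No pairing of the arrays by replicate number was seen, though such correlations cannot exclude it. Deviations of same-numbered arrays from their group means correlated between -0.11 and 0.12, and those of differently numbered arrays between -0.14 and 0.09. With the replicate block 3 genes were higher and 22 lower on OP9-DL1, 29 and 2 with Compound E against OP9-DL1, and 17 and 3 against OP9-GFP. Signal over background limits Mx2 and Oasl1.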
